A study of Homo sapiens with 6 samples.

Results

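The genes described here are serpins and the plasminogen activator system, chosen as every protein-coding gene of the count table whose symbol is SERPIN followed by a clade letter from A to I and a number, together with the plasminogen activator genes PLAU and PLAT, the receptor gene PLAUR and the receptor ligand gene SRPX2. The rule found 38 of the 58735 genes in the table, of which 37 are described here, 33 of them serpins, and all counts below are over those 37. Gene counts were made from mRNA sequencing of UE7T-9, an established human bone marrow mesenchymal stem cell line that was studied for its entry into decellularized bone. The control group was 3 libraries of wild-type UE7T-9 cells. The SRRM4 KO group was 3 libraries of UE7T-9 cells given a lentiviral CRISPR v2 vector with a guide against SRRM4, a neural splicing factor, selected with puromycin and cloned from a single cell. Both groups were grown in the same DMEM-based medium. The SRRM4 KO line is thus 1 clone set against its parent line, and the study describes the loss of the SRRM4 protein as incomplete.

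Serpins are a family of proteins that mostly inhibit serine proteases by acting as a bait: the protease cuts an exposed loop, the serpin springs into a new shape, and both are locked together for good. Urokinase (PLAU) and tissue-type plasminogen activator (PLAT) cut plasminogen to plasmin, which digests fibrin and matrix, and urokinase does so on the cell surface when bound to its receptor (PLAUR). Clade E serpins are the fast inhibitors of both activators, and in mesenchymal cells these genes are best known for their part in wound repair and cell movement through matrix.

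Library totals ran from 21951370 to 22916826 counts in the control libraries and from 21496117 to 23868323 in the SRRM4 KO libraries, so that 3 counts, taken as the floor, were worth 0.123 to 0.139 CPM in a library (CPM, the usual counts per unit of sequencing depth, here with TMM-scaled library sizes). SRRM4 had 0 counts in all 6 libraries, and the table could not check the knockout. Control replicate 1 stood apart, with 22403 genes counted against 20127 to 20674 in the other 5, and all 5 genes called below were also called without it. The 7 mesenchymal stem cell markers were all tested and summed to 2992 to 3100 CPM in the control and 3162 to 3328 CPM in the SRRM4 KO libraries, with CD44 called higher and THY1 and PDGFRB called lower by the rule given below. Nothing in the labels says that the libraries of a group came from separate cultures, so the p-values measure only the spread between these libraries, which may be technical.

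Of the 37 genes, 25 had at least 1 count, 16 passed the filter on low counts and were tested, and 12 had no count in any library. A gene was past the test when edgeR's quasi-likelihood test gave a Benjamini-Hochberg adjusted p under 0.05 over all 15341 genes tested, and it was called when its log2 fold change was also beyond 1 in either direction. PLAT, SERPINB7 and SRPX2 were called higher in SRRM4 KO, 3 of the 16 or 18.8%, where 5.45% of all tested genes were called higher. SERPINB9 and SERPING1 were called lower, 2 of the 16 or 12.5%, beside 7.14% of all tested genes. Past the test without the fold limit, 7 genes or 43.8% were higher, beside 20.7% of all genes, and 6 genes or 37.5% were lower, beside 20.9%. The SRRM4 KO and control libraries did not overlap for 15 of the 16 genes, 9 higher and 6 lower, or 93.8%, beside 51.8% of all tested genes. SERPIND1, among the 9, passed the filter only through its SRRM4 KO libraries. The genes were also more abundant than most, with a median mean level of 48.0 CPM against 21.1 CPM over all tested genes. Of the 9702 tested genes with a mean above 10 CPM over the libraries, 25.8% were past the test higher and 22.8% lower, and of the 10 genes described here above that level 7 were higher and 2 lower. That limit is itself moved by the change, since SERPINB7 was above it through its SRRM4 KO level alone, and SERPINB9 and SERPING1 were above it in control but not on average, so nothing is read from the split. The median log2 fold change of the 16 genes was 0.27, with quartiles of -0.84 and 1.07, where all tested genes had a median of -0.01 and quartiles of -0.37 and 0.33.

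**Figure D1:**
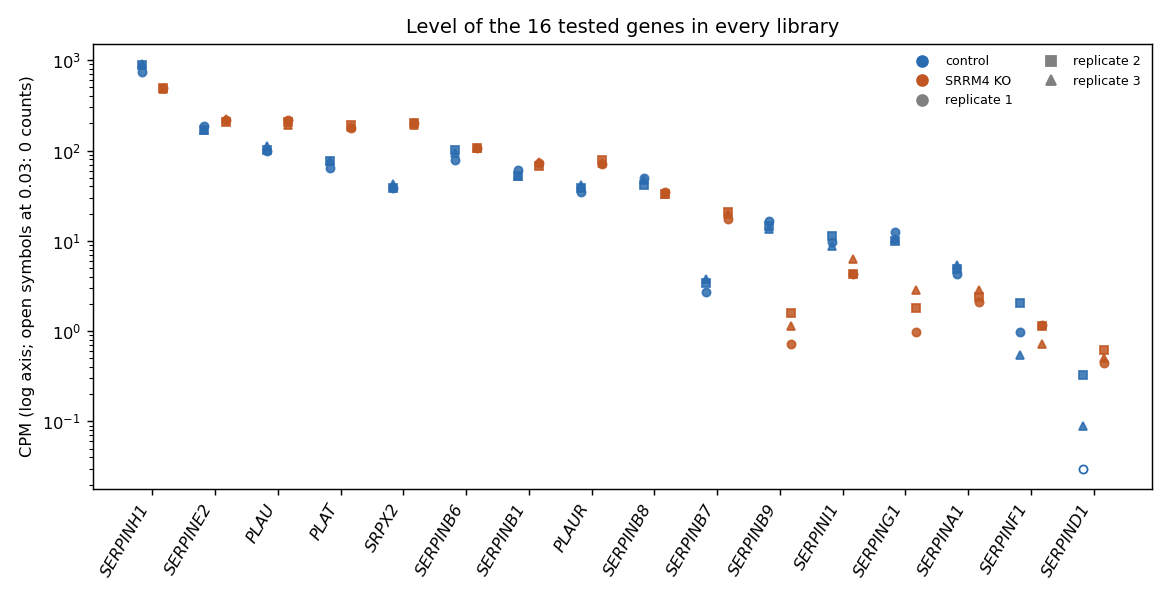
CPM on a log axis for the 16 tested genes in each of the 6 libraries, with control in blue, SRRM4 KO in orange and a symbol for each replicate. The levels run from SERPIND1, with 0 counts in control replicate 1 (open symbol), to SERPINH1, at 846 CPM on average in control, and the groups overlap only for SERPINF1.

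The activators and the receptor were all higher in SRRM4 KO. PLAU (ENSG00000122861, chr10:73909177-73917497, plus strand; the coordinates of all 37 genes are identical to those of GENCODE release 29 on GRCh38) encodes urokinase. It had 2122, 2191 and 2529 counts in control replicates 1 to 3 and 4816, 5007 and 4272 counts in SRRM4 KO replicates 1 to 3. The lowest SRRM4 KO library was thus well above the highest control library. The level went from 104 ± 8.05 CPM (SD, n = 3) to a mean of 205 CPM, with libraries from 194 to 216 CPM, a log2 fold change of 0.98 with an SE of 0.087 and an adjusted p of 3.37e-07 (edgeR quasi-likelihood test). PLAU is past the test but just below the fold limit, and its 95% interval of 0.79 to 1.16 holds that limit. C10orf55 lies over PLAU on the other strand and had a mean of 10.3 counts in control and 21.3 in SRRM4 KO, and with libraries that do not keep strand the reads of such a pair cannot be told apart.

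PLAT (ENSG00000104368) encodes the activator that works mainly on fibrin. Its counts were 1387, 1658 and 1716 in the control libraries and 3935, 4633 and 4059 in the SRRM4 KO libraries. All 3 SRRM4 KO values lay above all 3 control values. PLAT rose from 72.5 ± 7.46 to 184 ± 6.82 CPM, 2.53-fold, with a log2 fold change of 1.34 (SE 0.093, edgeR adjusted p = 2.47e-08).

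PLAUR (ENSG00000011422, chr19:43646095-43670547, minus strand) encodes the urokinase receptor, which is held in the membrane by a lipid anchor. It had 761, 836 and 917 counts in control and 1572, 1926 and 1605 counts in SRRM4 KO. The groups were well separated, and no control library reached 1000 counts. PLAUR rose 1.94-fold, from 38.3 ± 3.02 to 74.1 ± 4.39 CPM, with a log2 fold change of 0.95 (SE 0.098, edgeR adjusted p = 1.63e-06).

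SRPX2 (ENSG00000102359, chrX:100644166-100675788, plus strand) encodes a secreted sushi-repeat protein that binds the urokinase receptor. It had 833, 827 and 950 counts in control and 4497, 4914 and 4261 counts in SRRM4 KO. Replicates of each group lay close together, at 39.7 ± 2.41 CPM in control and 199 ± 4.72 CPM in SRRM4 KO. The 5.0-fold rise gave a log2 fold change of 2.32 (SE 0.087, edgeR adjusted p = 4.17e-11), where the median tested gene of chromosome X stood at 0.32. SYTL4 overlaps SRPX2 on the other strand, with a mean of 137 counts in control and 266 in SRRM4 KO, far fewer than SRPX2.

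The sequence before the SRPX2 start is shown because SRPX2 is one of the 3 genes called higher. It is chrX:100643949-100644165 (GRCh38.p14, plus strand, 217 bases), the part of the 250 bases before the RefSeq transcript start at 100644199 that lies outside annotated exons. Capitals mark matches to motifs of 3 kinds on either strand. The TATA box was searched as TATAAA. The letters for the GC box, which Sp1-type factors bind, were GGGCGG. The AP-1 site, bound by Jun and Fos proteins, was searched as TGANTCA.
SRPX2: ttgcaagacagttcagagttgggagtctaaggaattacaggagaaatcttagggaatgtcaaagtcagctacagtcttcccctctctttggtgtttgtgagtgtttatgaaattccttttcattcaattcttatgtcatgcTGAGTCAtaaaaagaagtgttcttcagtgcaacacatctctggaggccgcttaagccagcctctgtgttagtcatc
It holds 1 match, an AP-1 site from -109 to -103 relative to the transcript start.

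The 37 genes together took 0.137% to 0.154% of the counts of a control library and 0.163% to 0.165% of those of an SRRM4 KO library.

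SERPINE2 (ENSG00000135919) encodes protease nexin 1, which inhibits thrombin as well as the plasminogen activators. It had 4097, 3609 and 3730 counts in control and 4845, 5104 and 4957 counts in SRRM4 KO. The groups did not overlap, but the distance between them was small. SERPINE2 rose from 174 ± 12.5 to 217 ± 7.84 CPM, with a log2 fold change of 0.32 (SE 0.082, edgeR adjusted p = 0.00564). The median tested gene of chromosome 2 was at -0.25, and relative to it SERPINE2 stood at 0.56. SERPINE3, of the same clade, had 1, 7 and 0 counts in control and 0, 10 and 0 in SRRM4 KO and was not tested. It overlaps INTS6 on the other strand, which had a mean of 928 counts in control.

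Ratios of CPM per kilobase within a library set inhibitor against activator without any scaling between libraries. These 4 ratios were chosen after the levels were known, and with 3 libraries against 3 the exact two-sided permutation test cannot go below p = 0.10, so none could pass. The SERPINE2 ratios were lower in every SRRM4 KO library than in every control library, with a log2 difference of -0.66 to PLAU and -1.03 to PLAT. SERPINE2 stood at 2.20, 1.62 and 1.62 times the PLAT level in control and at 0.916, 0.820 and 0.909 times in SRRM4 KO. The PLAT to PLAU ratio went from 0.291, 0.337 and 0.302 to 0.364, 0.412 and 0.424, a log2 difference of 0.37. These 3 ratios did not overlap between groups, and each had the smallest exact permutation p, 0.10, or 0.133 after Benjamini-Hochberg adjustment over the 4. The PLAUR to PLAU ratio was 0.237, 0.253 and 0.240 in control and 0.216, 0.255 and 0.249 in SRRM4 KO, a log2 difference of -0.02 (exact permutation p = 0.9, adjusted 0.9). Receptor and urokinase RNA thus stood in overlapping proportions in both groups.

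**Figure D2:**
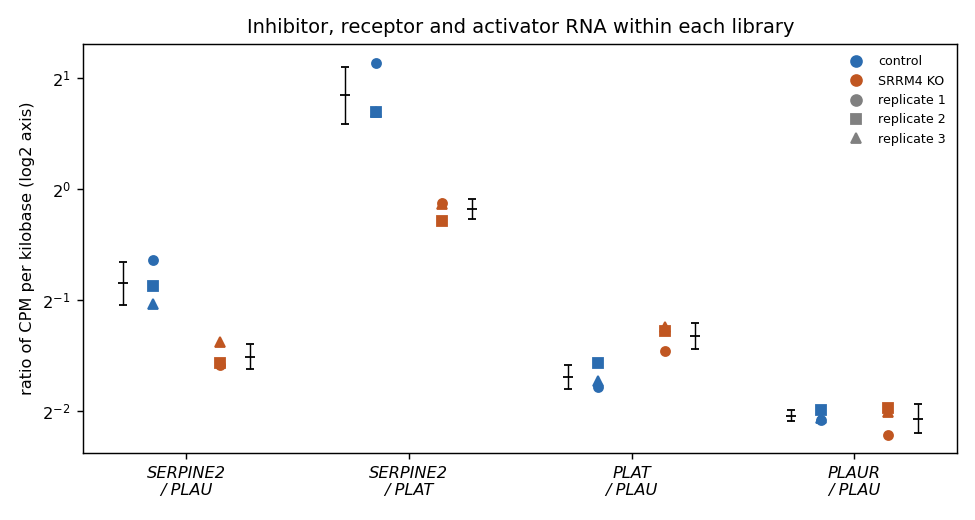
Ratio of CPM per kilobase within each library on a log2 axis for 4 pairs of genes, with control in blue, SRRM4 KO in orange and a bar at the mean of the log2 ratios with 1 SD. The groups overlap for PLAUR to PLAU and lie apart for the other 3 pairs.

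Clade B serpins stay inside the cell and inhibit cathepsins, granzymes and neutrophil proteases. Of 13 clade B genes 8 had counts and 5 were tested, of which 2 were past the test higher and 2 lower, where 20.7% and 20.9% of all tested genes were. Clade B genes lie in clusters on chromosomes 6 and 18, and in both clusters the tested genes did not all have the same sign of log2 fold change. On chromosome 6, SERPINB1, SERPINB9 and SERPINB6 lie within 140 kb.

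SERPINB9 (ENSG00000170542, chr6:2887266-2903280, minus strand) encodes the intracellular inhibitor of granzyme B. It had 359, 315 and 299 counts in control and 16, 39 and 25 counts in SRRM4 KO. The highest SRRM4 KO library had far fewer counts than the lowest control library. SERPINB9 fell from 14.8 ± 1.59 to 1.15 ± 0.441 CPM, 12.7-fold, with a log2 fold change of -3.67 (SE 0.238, edgeR adjusted p = 1.23e-08), the largest change of the 16. Over the fits that left out each library in turn its log2 fold change ran from -4.00 to -3.43.

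The neighbours of SERPINB9 did not follow it. SERPINB1 (ENSG00000021355, chr6:2832332-2842006) encodes an inhibitor of neutrophil elastase. SERPINB1 had 1328, 1120 and 1176 counts in control and 1633, 1624 and 1654 in SRRM4 KO. It rose from 55.2 ± 5.16 to 71.6 ± 4.45 CPM, a log2 fold change of 0.37 (SE 0.098, edgeR adjusted p = 0.00628). SERPINB6 (ENSG00000124570, chr6:2948159-2972165), which inhibits cathepsin G, had 1684, 2193 and 2122 counts in control and 2359, 2617 and 2328 in SRRM4 KO. Its groups did not overlap in CPM, but with a log2 fold change of 0.22 (SE 0.0999, 95% interval 0.00 to 0.43, edgeR adjusted p = 0.0958) it was not past the test. The log2 fold change of SERPINB6 was 0.11 without control replicate 1, and 0.30 and past the test without control replicate 2. The median tested gene of chromosome 6 was at 0.10. The long noncoding RNA gene SERPINB9P1, between SERPINB1 and SERPINB9, had at most 1 count in a library.

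On chromosome 18, 10 clade B genes lie within 543 kb, of which 5 had counts and 2 were tested. SERPINB7 (ENSG00000166396, chr18:63752935-63805376, plus strand), known as megsin and from inherited skin thickening, had 59, 73 and 85 counts in control and 386, 503 and 442 counts in SRRM4 KO. Every SRRM4 KO library was well above every control library. SERPINB7 rose from 3.30 ± 0.548 to 19.3 ± 1.78 CPM, 5.84-fold, with a log2 fold change of 2.55 (SE 0.170, edgeR adjusted p = 1.69e-08). The median tested gene of chromosome 18 was at -0.34 over 229 genes, and relative to it SERPINB7 stood at 2.89.

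SERPINB8 (ENSG00000166401, chr18:63969925-64019779, plus strand), an inhibitor of furin, had 1082, 898 and 1063 counts in control and 765, 795 and 725 in SRRM4 KO. It fell from 46.3 ± 4.26 to 33.3 ± 0.903 CPM, a log2 fold change of -0.48 (SE 0.103, edgeR adjusted p = 0.00165). Relative to the median gene of its chromosome the value was -0.13. HMSD overlaps it on the same strand, with a mean of 65.0 counts in control and 54.0 in SRRM4 KO. Between both genes, SERPINB2, the plasminogen activator inhibitor 2 gene, had 14, 6 and 5 counts in control and 0, 0 and 4 in SRRM4 KO, too few to be tested. SERPINB3, SERPINB4, SERPINB10, SERPINB11 and SERPINB13 had no count, and SERPINB5 and SERPINB12 had no more than 3 in a library.

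**Figure D3:**
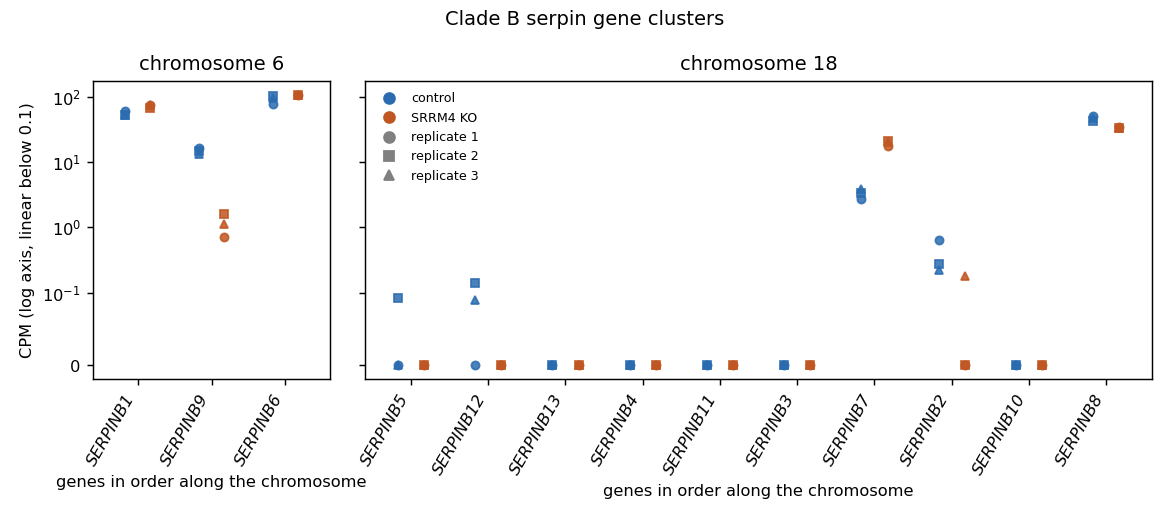
CPM in every library for clade B serpin genes in their order along chromosomes 6 and 18, on a log axis that is linear below 0.1, with control in blue and SRRM4 KO in orange. SERPINB9 is low in SRRM4 KO between SERPINB1 and SERPINB6, and on chromosome 18 SERPINB7 and SERPINB8 are the 2 genes with appreciable levels.

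The sequences before the starts of SERPINB7 and SERPINB9 are shown because these genes changed most in each direction among the serpins. They are chr18:63777531-63777776 (plus strand, 246 bases, before the RefSeq transcript start at 63777781) and chr6:2903310-2903559 (minus strand, 250 bases, before the start at 2903309), both in GRCh38.p14 and outside annotated exons, with capitals as for SRPX2.
SERPINB7: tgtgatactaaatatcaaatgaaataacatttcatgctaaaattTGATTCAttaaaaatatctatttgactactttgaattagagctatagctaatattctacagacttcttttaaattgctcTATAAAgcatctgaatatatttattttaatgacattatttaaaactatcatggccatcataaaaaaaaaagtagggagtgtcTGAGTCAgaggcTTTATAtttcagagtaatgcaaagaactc
SERPINB9: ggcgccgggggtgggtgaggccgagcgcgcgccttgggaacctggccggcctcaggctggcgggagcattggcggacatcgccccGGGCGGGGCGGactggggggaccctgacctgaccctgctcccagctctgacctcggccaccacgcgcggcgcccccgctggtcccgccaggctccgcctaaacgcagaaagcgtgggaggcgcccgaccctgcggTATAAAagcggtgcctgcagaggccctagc
The SERPINB7 sequence holds AP-1 matches from -206 to -200 and from -45 to -39 and TATA box matches from -127 to -122 and from -33 to -28. The SERPINB9 sequence holds 2 GC boxes that share a base, from -165 to -155, and a TATA box from -30 to -25. RefSeq gives SERPINB7 2 further transcript starts. The window before 63775418 has AP-1 matches but no TATA box, the window before 63753057 has no match to any of the 3 motifs, and the sequence printed is the one of the 3 with the most matches.

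Over all genes, 30 of the 37 had an entry in the RefSeq promoter table, 13 of the 16 tested genes among them with 22 windows of 250 bases. PLAT, SERPINF1, SERPINF2, SERPING1, SERPINC1, SERPINB10 and SERPINB11 had none. An AP-1 match stood in 5 of the 22 windows or 22.7%, those of PLAUR, SRPX2, SERPINB8 and SERPINB7 (2 windows), and in 6.57% of 35116 windows in the table. GC boxes stood in 45.5% of the 22 and 42.6% of all windows, and TATA boxes in 13.6% and 10.7%. Windows of 1 gene are not independent, and a match is a description of the letters only. Genes with an AP-1 match went both ways, since PLAUR, SRPX2 and SERPINB7 rose and SERPINB8 fell.

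Outside clades B and E, 6 serpins were tested, of which 4 were past the test lower and none higher, where 20.9% and 20.7% of all tested genes were. SERPINF1 and SERPIND1 did not pass. SERPIND1 was called higher without control replicate 2 but not without control replicate 1. SERPING1 (ENSG00000149131, chr11:57597387-57614853, plus strand) encodes C1 inhibitor, which blocks the complement proteases C1R and C1S and plasma kallikrein. It had 271, 217 and 232 counts in control and 22, 44 and 63 counts in SRRM4 KO. No SRRM4 KO library came near the control libraries, though the 3 differed among themselves. SERPING1 fell 5.82-fold, from libraries at 10.1 to 12.5 CPM (SD 1.32) to 1.88 ± 0.939 CPM, with a log2 fold change of -2.54 (SE 0.277, edgeR adjusted p = 2.93e-06). Leaving out SRRM4 KO replicate 3 or any other library kept it between -2.97 and -2.24.

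SERPINH1 (ENSG00000149257) encodes the collagen chaperone HSP47 of the endoplasmic reticulum, a serpin that does not inhibit proteases, and had the highest level per kilobase of gene length of the 37 genes in both groups, at 135 ± 13.9 CPM per kilobase in control and 77.8 ± 1.88 in SRRM4 KO. Its counts were 16177, 19155 and 20190 in control and 11065, 12053 and 10460 in SRRM4 KO. The groups did not overlap, and control replicate 1 was the lowest of its group. SERPINH1 fell from 846 ± 87.2 to 488 ± 11.8 CPM, 1.73-fold, with a log2 fold change of -0.79 (SE 0.080, edgeR adjusted p = 1.38e-06). PLAU was next per kilobase over both groups, at 35.3 ± 2.73 CPM per kilobase in control and 69.5 ± 3.73 in SRRM4 KO.

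SERPINI1 (ENSG00000163536) encodes neuroserpin, an inhibitor of PLAT in the nervous system. It had 212, 241 and 196 counts in control and 96, 105 and 139 in SRRM4 KO. It fell from 9.90 ± 1.20 to 4.97 ± 1.16 CPM, a log2 fold change of -0.99 (SE 0.195, edgeR adjusted p = 0.000764) that lies at the fold limit. SERPINA1 (ENSG00000197249, chr14:94376747-94390693), whose product alpha-1 antitrypsin is a main inhibitor of neutrophil elastase in blood, had 93, 105 and 122 counts in control and 47, 58 and 63 in SRRM4 KO. It fell from 4.87 ± 0.588 to 2.45 ± 0.381 CPM, a log2 fold change of -0.99 (SE 0.241, edgeR adjusted p = 0.00386), also at the limit. Among clade A genes, which are made mainly in the liver, only SERPINA1 was tested, 6 of the 10 had no count, and its cluster of 9 genes on chromosome 14 had 4 with counts. The 6 hepatocyte markers summed to at most 0.358 CPM in a control library and 0.227 CPM in an SRRM4 KO library, 2 of them without any count.

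SERPINF1 (ENSG00000132386) encodes the secreted factor PEDF, which does not inhibit proteases. It had 21, 44 and 12 counts in control and 26, 28 and 16 in SRRM4 KO, with groups that overlapped. The log2 fold change was -0.22 with a 95% interval of -1.31 to 0.88 (edgeR adjusted p = 0.771), and it was 0.43 without control replicate 2. SERPIND1 (ENSG00000099937) encodes heparin cofactor II, a thrombin inhibitor. It had 0, 7 and 2 counts in control and 10, 15 and 11 in SRRM4 KO. Its log2 fold change of 1.88 (95% interval 0.14 to 3.63, edgeR adjusted p = 0.0786) was not past the test. SERPIND1 passed the filter on low counts only through its SRRM4 KO libraries. With 1 library left out, its log2 fold change ran from 1.32 (without control replicate 1) to 3.37 (without control replicate 2), and only the latter was called. SERPIND1 lies within PI4KA on the other strand, which had a mean of 3740 counts in control and 3319 in SRRM4 KO.

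The remaining genes were near or below the floor. SERPINF2, the plasmin inhibitor gene, had 3, 8 and 8 counts in control and 0, 0 and 3 in SRRM4 KO. SERPINA5 had 2, 3 and 0 against 0, 0 and 7, and SERPINA10 had 4 counts in control replicate 2 and none elsewhere. Another 4 genes had 1 to 3 counts in some library, and 12, among them the antithrombin gene SERPINC1 and SERPINA3, had none, which with 3 counts as the limit allows up to 0.139 CPM in a library. These limits cover counting error only.

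**Figure D4:**
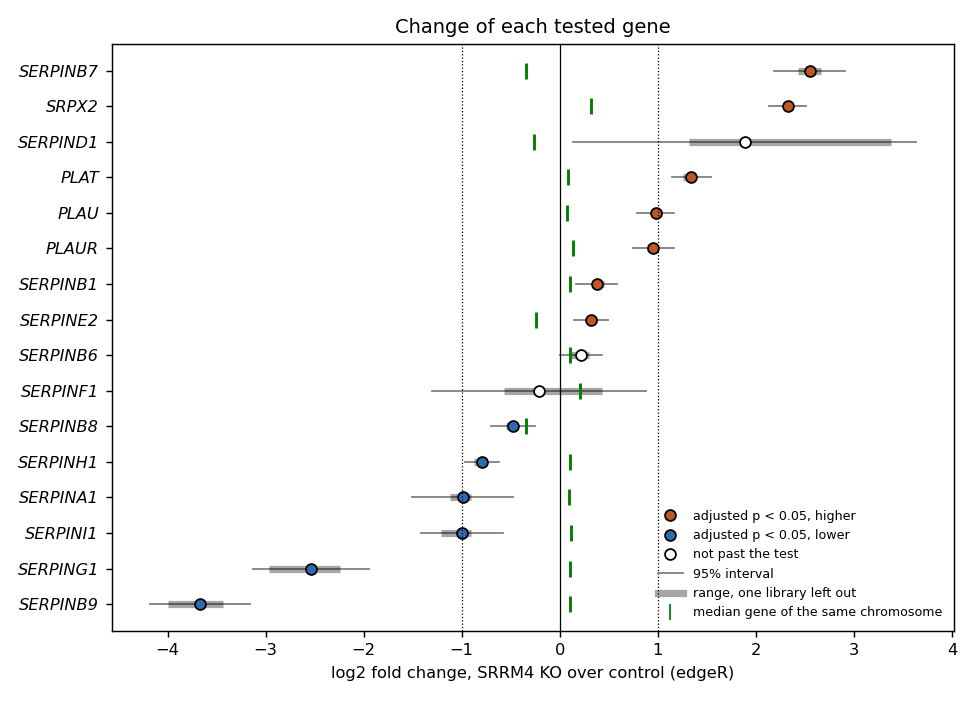
Log2 fold change of each tested gene in SRRM4 KO over control (edgeR), with its 95% interval, the range when each library is left out in turn, and the median gene of the same chromosome as a green bar. Dotted lines mark the fold limit of 1, and PLAU, PLAUR, SERPINA1 and SERPINI1 sit beside it.

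Genes related to serpins or plasminogen activators were read from 5 lists, to be set beside all tested genes, of which 20.7% were past the test higher and 20.9% lower. In bulk RNA, fewer cells of a type and less RNA per cell cannot be told apart. Of 19 genes for plasmin generation, binding and fibrin, 18 were found in the table and 8 tested, with 1 past the test higher, 6 lower and a median log2 fold change of -0.58. Plasminogen itself (PLG) had 0 counts in all 6 libraries. Among plasminogen receptors, ENO1, also a glycolytic enzyme, rose from 1419 ± 150 to 2626 ± 85.8 CPM (log2 fold change 0.89, SE 0.075), PLGRKT fell (-0.60, SE 0.150), ANXA2 fell (-0.34, SE 0.066), and its partner S100A10 was at 0.03 (SE 0.101) and not past the test. In this list 3 genes were called lower, as 7.14% of all tested genes were. They were VTN, which encodes the matrix protein vitronectin, a ligand of the urokinase receptor, whose control libraries had 88, 68 and 97 counts and whose SRRM4 KO libraries had 7, 0 and 6, a log2 fold change of -4.30 (SE 0.551), the plasminogen-binding tetranectin gene CLEC3B (-2.16, SE 0.227), and the plasmin inhibitor gene TFPI2 (-1.43, SE 0.164).

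Of 20 genes for partners of the urokinase receptor and for receptors that clear activator and inhibitor complexes, 18 were tested, 8 were past the test higher and 6 lower, where 20.7% and 20.9% of all tested genes were, and the median log2 fold change was 0.13. Of these, 4 were called higher and 2 lower, where 5.45% and 7.14% of all tested genes were called. The most abundant genes called higher were the integrin genes ITGA3 (1620 ± 160 to 3320 ± 199 CPM, log2 fold change 1.03, SE 0.076) and ITGB3 (2.09, SE 0.104), and the lipoprotein receptor gene LRP8 (1.44, SE 0.106). The median tested gene of chromosome 17, where ITGA3 and ITGB3 lie, was at 0.21, and relative to it ITGA3 was not past the fold threshold. FPR1 (3.32, SE 0.466), a formyl peptide receptor gene with whose product the urokinase receptor can act, was also called higher. It had 4, 5 and 6 counts in control and 55, 54 and 51 in SRRM4 KO. FPR1 thus passed the filter on low counts only through SRRM4 KO, and it was not tested with at least 10 counts in every library. The lipoprotein receptor genes VLDLR (129 ± 12.6 to 54.3 ± 5.41 CPM, log2 fold change -1.25, SE 0.102) and LRP1B (-1.99, SE 0.323) were called lower. LRP1, a main receptor for uptake of activators bound to their inhibitors, fell by less (-0.61, SE 0.092), and was not called.

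Of 23 genes for coagulation factors and their control, 15 were tested, and the median log2 fold change was -0.35. Past the test were 3 higher and 5 lower, where 20.7% and 20.9% of all tested genes were. TGM2, a transglutaminase that cross-links matrix proteins, had 89, 84 and 124 counts in control and 1546, 1709 and 1311 in SRRM4 KO, a log2 fold change of 3.87 (SE 0.146). The protease-activated receptor genes went both ways, with F2RL1 called higher (1.35, SE 0.166) and F2R, the thrombin receptor gene, called lower (-1.05, SE 0.093). In this list 2 genes were called higher and 1 lower, where 5.45% and 7.14% of all tested genes were. Without control replicate 1, or when the fold limit itself was tested (glmTreat), 0 were called lower, and the F2R call was lost. With glmTreat 1 was called higher.

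The list of 36 proteases, known serpin targets among them, had 17 tested, with 3 past the test higher, 11 lower and a median log2 fold change of -0.80. It had 8 genes called lower and 1, DPP4, called higher (1.69, SE 0.084), where 7.14% of all tested genes were called lower and 5.45% higher. With at least 10 counts in every library 6 were called lower, since some of the 8 had too few SRRM4 KO counts for that filter. The most abundant genes called lower were the secreted serine protease gene HTRA1 (762 ± 40.1 to 176 ± 9.80 CPM, log2 fold change -2.11, SE 0.078), the collagen-cutting cathepsin gene CTSK (-1.40, SE 0.079) and C1R (-1.57, SE 0.085). C1S (-2.12, SE 0.089) was named outside the naming rule because SERPING1 inhibits its product as it does that of C1R, and both genes were lower in the same libraries as SERPING1. Among 31 other protease inhibitors, 11 were tested, and the median log2 fold change was -0.14. Past the test were 4 in each direction, where 20.7% of all tested genes were higher and 20.9% lower. CSTA (1.72, SE 0.471), a cystatin gene at 1.36 CPM in SRRM4 KO, was called higher, where 5.45% of all tested genes were. Its counts were 11, 8 and 8 in control and 31, 36 and 27 in SRRM4 KO, and only the latter took it past the filter on low counts. The CSTA call was lost with at least 10 counts in every library and with glmTreat. The inhibitor genes SPOCK1 (-2.11, SE 0.126) and SPINT2 (-1.52, SE 0.200) were called lower, where 7.14% of all tested genes were.

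**Figure D5:**
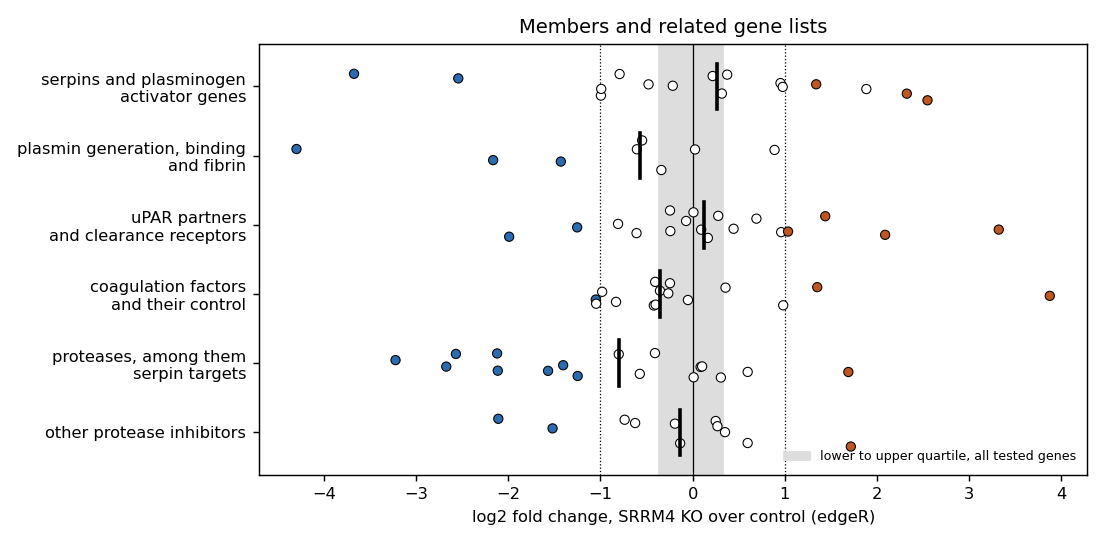
Log2 fold change in SRRM4 KO over control (edgeR) of every tested gene in the set of serpins and plasminogen activator genes and in 5 related lists, with called genes in orange (higher) or blue (lower), black bars at medians and a grey band from the lower to the upper quartile of all tested genes. The protease list has the lowest median, -0.80, and the serpins and plasminogen activator genes the highest, 0.27.

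Markers of other cell types moved in part. Neuron markers summed to 93.2 to 119 CPM in control and 84.0 to 92.6 in SRRM4 KO, with none of 4 tested past the test. Epithelial markers summed to 97.4 to 119 and 101 to 108 CPM, with KRT8 past the test lower (24.7 to 16.4 CPM on average) and most of the sum from KRT18, and blood cell markers to 19.7 to 21.2 and 17.9 to 20.9 CPM. Endothelial markers summed to 22.5 to 26.1 CPM in control and 4.43 to 5.86 CPM in SRRM4 KO, with TEK (13.7 to 0.993 CPM on average) and KDR (9.41 to 3.11 CPM) called lower, in the direction of SERPING1, SERPINB9 and VTN, and their part in those results was not tested. The other endothelial markers were low in both groups, with VWF at 1.30 and 1.01 CPM and not past the test, and PECAM1 and CDH5 at no more than 3 counts in any library.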

How the data were processed

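Total RNA from 6 UE7T-9 libraries was sequenced as non-stranded mRNA. The authors deposited raw gene counts, made per the labels with HISAT2 2.0.5 and featureCounts 1.5.0-p3; the genome build is not given in the sources used here. DESeq2 is also named in the submitters' processing notes.

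Counts were tested with edgeR 4.0.16 in R 4.3.3: TMM scaling, filterByExpr, glmQLFit and glmQLFTest of SRRM4 KO against control, with Benjamini-Hochberg adjustment over 15341 genes. CPM used TMM-scaled library sizes, and levels between genes were compared per 1000 bases of the deposited gene length. Log2 fold changes use edgeR's default prior count, so those of low genes are drawn toward 0. The SE of a log2 fold change was not taken from the model. It was calculated back as the absolute log2 fold change divided by the square root of the quasi-likelihood F statistic. Intervals were built from that SE with a t quantile, so both are approximate, above all for genes with few counts such as SERPIND1. Of the steps, only the main edgeR fit and the DESeq2 fit were tested on simulated data, with changes larger than the fold limit.

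1 gene that the rule finds is not reported here and was left out of every count over the members. The genes and lists were chosen with earlier results of these data known. All tested genes are named. Called genes and the 3 highest per kilobase have all values, untested genes are named if a library had over 3 counts, and lists give at most 3 called genes in each direction. FPR1, C1S, LRP1, the plasminogen receptors, the untested or untabled genes named by symbol alone and the called markers were named outside that rule, after their values were seen. Promoters came from RefSeq. Protein sequences were not analysed here.

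Alternatives were DESeq2 1.42.0 and its size factors, upper-quartile scaling, other filters, protein-coding genes only, glmTreat, centring by chromosome, the replicate number as a block, and leaving out each library. Centring moved only the log2 fold changes and kept the adjusted p of the main fit.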

Additional observations from a re-analysis of the deposited data

How the results depend on the processing

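Under 15 alternatives PLAT, SERPINB7 and SRPX2 remained called higher and SERPINB9 and SERPING1 called lower. The count of members called lower was 4 instead of 2, with SERPINA1 and SERPINI1 added, under upper-quartile scaling, at least 10 counts in every library, protein-coding genes only and centring by chromosome. Leaving out 1 library gave 2 to 4 called lower, with 4 without control replicate 1 or SRRM4 KO replicate 3, and 3 to 5 called higher, with 5 (PLAU and PLAUR added) without control replicate 3. SERPINF1 ran from -0.57 to 0.43 over these fits, reversed without control replicate 2. In the lists, coagulation genes called lower went from 1 to 2 under upper-quartile scaling, to 0 with glmTreat and to between 0 and 2 with a library left out, and those called higher went from 2 to 1 with glmTreat. Other inhibitors called lower went from 2 to 4 with no filter and with DESeq2, and those called higher from 1 to 0 with at least 10 counts in every library or glmTreat and to between 1 and 2 with a library left out. Plasmin genes called lower were 2 instead of 3 with at least 10 counts in every library, which leaves out VTN. Proteases called lower were 6 instead of 8 with glmTreat or at least 10 counts in every library and 7 to 8 with a library left out, and genes of the urokinase receptor list called higher were 3 instead of 4 with these 2 settings or centring by chromosome. The causes were not tested. Over all genes 836 were called higher and 1096 lower, but 360 and 577 with glmTreat. SERPIND1 has no value at 10 counts in every library.

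The deviations of same-numbered replicates from their group means had correlations of -0.11, 0.13 and -0.14. With 3 libraries in a group, such values cannot decide whether the numbers pair the libraries. With the replicate block 3 members were called higher and 3 lower, SERPINI1 being added at -1.01. Members past the test higher were 9 instead of 7 without control replicate 2. Few counts limit what can be said of SERPIND1, SERPINF1 and the 21 untested members, and 1 clone against its parent line limits every comparison.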

Other observations

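SRPX, the paralog of SRPX2 on the same chromosome, had 1685, 1550 and 1809 counts in control and 1466, 1587 and 1688 in SRRM4 KO. Its level was 76.8 CPM in control and 69.1 CPM in SRRM4 KO, a log2 fold change of -0.15 that was not past the test (edgeR quasi-likelihood test, adjusted p = 0.227). The processed pseudogene SERPINH1P1, a near copy of SERPINH1, had at most 7 counts in a library. It was too low to be tested.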
